A study of Caenorhabditis elegans with 2 samples.

Results

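The 9 genes described here are Hippo pathway genes of Caenorhabditis elegans and do not make up the whole pathway. The kinase genes are cst-1, cst-2, wts-1 and sax-1. The others are the merlin gene nfm-1, the MOB gene mob-4, the 14-3-3 genes par-5 and ftt-2, and the coactivator gene yap-1. All were listed by name and are 9 of 19973 nuclear protein-coding genes. Every called region was given to a gene when its summit lay inside the gene or within 2000 bp of one of its transcript starts. The data are ChIP-seq of EGL-44, the TEA domain (TEAD) DNA-binding protein of the worm, tagged with GFP and recovered with an anti-GFP antibody. The series holds 1 group of 2 biological replicates, so the comparisons are between replicates, between lists and between genes, and no test between conditions exists. The group was strain RW12173, with the allele st12173 (GFP inserted at egl-44 by CRISPR, with a loxP-flanked unc-119(+) marker) in an unc-119(tm4063) III background. The worms were young adults of 66.5 h, synchronised as starved L1 larvae after bleaching. The tagged protein was made from its own locus, and whole worms were used, so a site bound in few cells and a site bound weakly in many cannot be told apart. A group without the tag was not analysed here.

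In the Hippo pathway as known from flies and mammals, an MST (Hippo) kinase activates a LATS (Warts) kinase together with MOB and scaffold proteins. Merlin (NF2) brings this machinery to the membrane, LATS phosphorylates the coactivator YAP, and 14-3-3 proteins hold phosphorylated YAP in the cytoplasm. Unphosphorylated YAP enters the nucleus and binds TEAD proteins, of which EGL-44 is the worm member, so most of the genes described here encode proteins that act upstream of, or together with, the protein that was mapped.

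The authors deposited 8 lists of called regions: a ranked and a shorter thresholded list for each replicate, and a pooled and a conservative pair of such lists from both replicates. A region of a thresholded list is called a peak here and any other ranked region a weaker region. Each region carries the deposited signal, a number without stated scaling that is compared only within a list. The ranked lists also carry a −log10 irreproducible discovery rate (the global IDR), the expected share of irreproducible calls at that rank or better. The threshold of 0.01 is 2 on this scale, and the values end at 5. The pooled pair held 79828 regions and 1553 peaks, the conservative pair 76689 and 1442, replicate 1 53820 and 769, and replicate 2 40873 and 568. The median peak signals were 81.14, 82.55, 60.87 and 52.27. Most genes lie near some ranked region: 16491 of 19973 had at least 1 in the pooled list. The conservative and pooled lists give the same signal at the member regions they share, so they differ there in IDR and are not separate measurements of signal. Read depth is unknown.

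Of the 9 Hippo pathway genes, 3 had a pooled peak: par-5, nfm-1 and wts-1. The same 3 had one in the promoter window, from 1000 bp upstream to 200 bp downstream of a transcript start. Over all genes, 8.22% had a pooled peak in the gene or within 2000 bp of a start, and 4.03% had one in the promoter window. The share was 33.3% (3 of 9) for the listed genes by either rule. By the first rule, a longer window has more room for a region. The windows of wts-1 (8058 bp), nfm-1 (7137 bp) and par-5 (4507 bp) exceeded the median of 4182 bp over all genes. The conservative list added ftt-2, giving 4 of 9 against 7.74% of all genes. In replicate 1's own thresholded list, 2 of 9 had a peak against 4.54%, and in replicate 2's, 2 of 9 against 3.26%. Both replicates' own lists named nfm-1 and par-5, against 2.31% of all genes with a peak in both. With 9 genes chosen with earlier results known, these shares are a description and carry no test. The wts-1 peak was listed only in the pooled and conservative lists.

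A ranked region of any strength was no distinction. In the pooled ranked list all 9 genes had one, where 82.6% of all genes did. All 9 also had one in replicate 1's ranked list, where the share of all genes was 80.1%. In replicate 2's ranked list 6 of 9 did, against 80.4%, and the 3 without were yap-1, cst-1 and cst-2. The pooled list held 40 distinct regions at the 9 genes, 5 of them peaks and 35 weaker, and the 8 lists together held 151 entries. Of the 40, 36 overlapped a ranked region of replicate 1 by at least 1 bp, 24 overlapped one of replicate 2, and 3 overlapped neither. All 5 peaks overlapped ranked regions of both replicates, as did 96.8% of all pooled peaks. Of the 35 weaker regions 51.4% did, and of all weaker regions 31.3%. The threshold itself selects on reproducibility, so the overlap of peaks is a description.

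**Figure D1:**
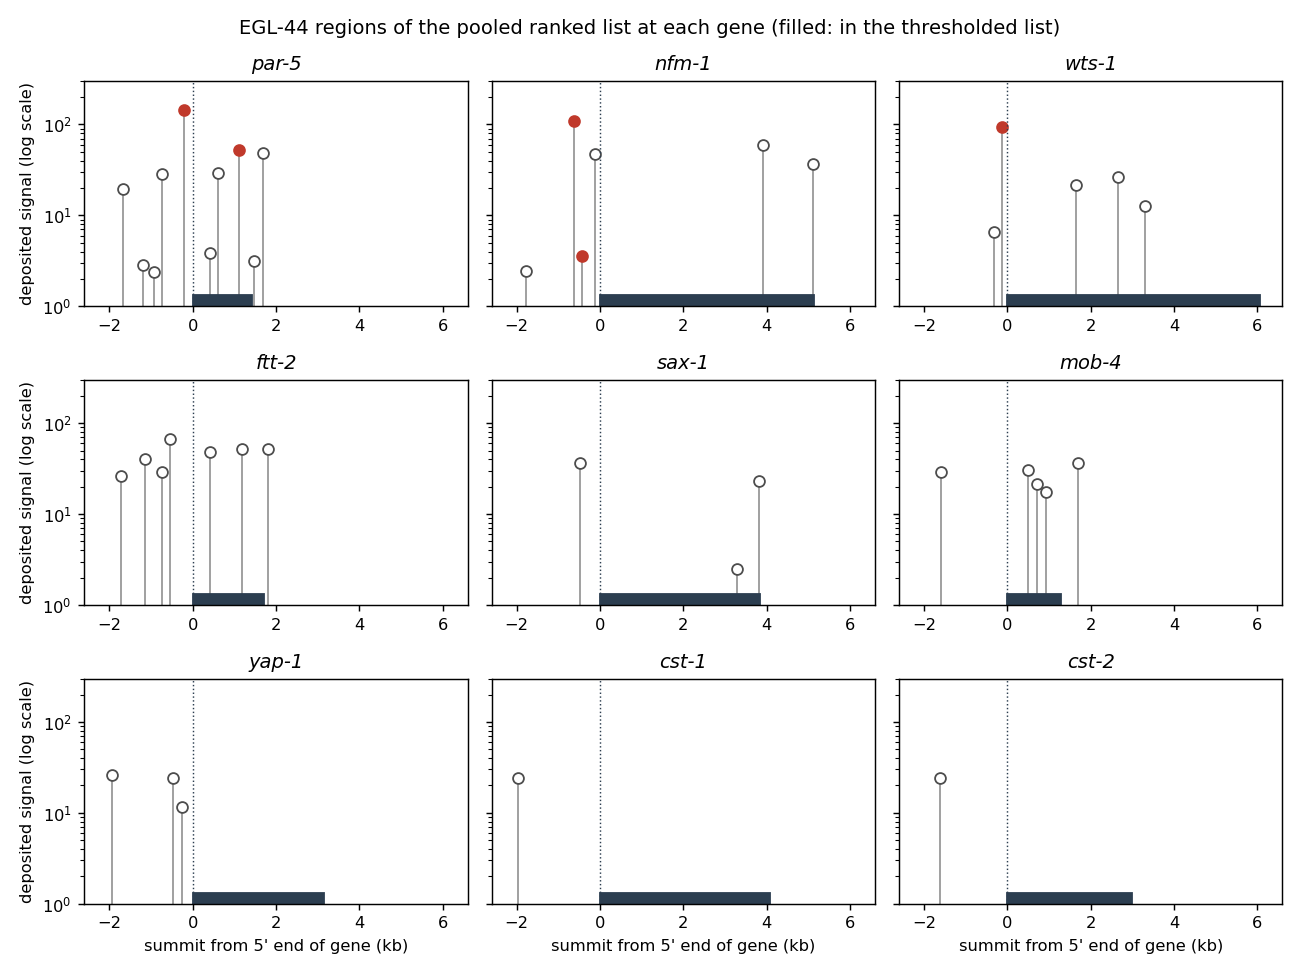
Regions of the pooled ranked list at each of the 9 genes, plotted as deposited signal (log axis) against distance in kb from the 5' end of the gene, with peaks filled, weaker regions open and the gene as a dark bar. The highest points are at par-5 (145.11), nfm-1 (109.02) and wts-1 (94.45), and the cst-1 and cst-2 panels hold the same single region.

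Ranked by the strongest pooled signal of every gene, par-5 had 184 genes at or above it (0.921% of 19973), nfm-1 421 (2.11%), wts-1 643 (3.22%) and ftt-2 1543 (7.73%). The other genes lay in the bulk of the distribution, with 8414 (42.1%) at or above sax-1, 8857 (44.3%) at or above mob-4, 13636 (68.3%) at or above yap-1 and 14380 (72%) at or above cst-1 and cst-2. Among genes with a region, the median strongest signal was 37.28 and the 95th percentile 85.23. Against these genes with a region, the pathway genes fell into 3 above the 95th percentile, ftt-2 between it and the median, and 5 below the median. The percentages at or above each gene are instead over all 19973 genes, including those without a region. By strongest promoter peak alone, wts-1 lay between emb-1 (94.47) and aex-4 (94.44), nfm-1 between ifet-1 (109.15) and spat-3 (108.9), and par-5 between npp-6 (145.63) and eif-2Bgamma (144.5), over 805 genes. Closeness in signal is the only likeness measured there.

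**Figure D2:**
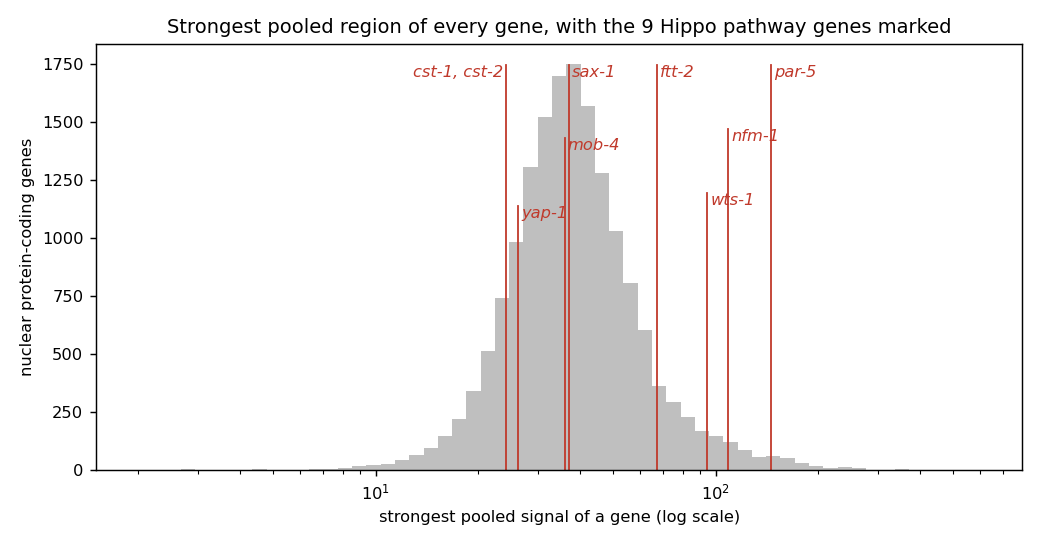
Histogram of the strongest pooled signal of each nuclear protein-coding gene with a pooled region (horizontal axis, log scale; vertical axis, number of genes), with lines at the 9 Hippo pathway genes. par-5, nfm-1 and wts-1 lie in the right tail, above 85.23, and cst-1, cst-2, yap-1, mob-4 and sax-1 lie below the median of 37.28.

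Among the listed genes, the windows of the 14-3-3 genes held the most pooled regions per kb. These windows include the flanks of the genes and parts of neighbouring genes. par-5 encodes a 14-3-3 protein known in the worm for its part in the first asymmetric division of the embryo, and ftt-2 encodes the other worm 14-3-3 protein, known to bind DAF-16. The windows of par-5 held 10 pooled regions (2.22 per kb) and those of ftt-2 7 (1.75 per kb), against a median of 0.909 per kb over all genes. The par-5 count includes regions of low signal, down to 2.37. The par-5 regions of signal 28.24, 19.72, 2.83 and 2.37 had summits inside the neighbouring gene M117.3. Some par-5 regions overlapped, as did those of signal 48.61 and 3.12, which shared an IDR of 0.102. The windows of mob-4 (4001 bp, 1.25 per kb), ftt-2 (4008 bp) and par-5 (4507 bp) were the shortest among the listed genes. Those windows also had the highest densities. The part of window length in these densities was not tested.

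The par-5 peak had the highest signal of the 9 genes. In assembly ce11 it covered IV:11821983-11822292, with the summit 214 bp upstream of the par-5 start (gene IV:11820506-11821924, minus strand). Its pooled signal was 145.11 at a −log10 IDR of 4.14 (IDR 7.22e-05), in the top 0.195% of the pooled ranked list. In replicate 1 the signal was 83.76, −log10 IDR 3.94 (top 0.247%), and in replicate 2 it was 47.24, −log10 IDR 2.41 (top 0.969%). Both replicates therefore placed the region within the top 0.969% of their lists and past the threshold, and their summits were 27 bp apart. The peak sits between par-5 and M117.3, a gene that starts 281 bp away on the opposite strand, and the summit was nearer to the M117.3 start (68 bp) than to that of par-5. The starts of the ncRNA genes M117.11 and M117.12 were also within 300 bp, that of M117.12 at 24 bp. Which of these genes the peak belongs to was not tested.

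The spacer between par-5 and M117.3 is printed because the summit lies in it. It is IV:11821925-11822205 of the RefSeq genome sequence (WBcel235, the ce11 assembly), read on the par-5 (minus) strand from the M117.3 side to the base next to par-5. The capitals mark GAGAGA on the other strand, a GA repeat word and the only searched word in it. The words searched throughout, on both strands, were CATTCC (the TEAD core), GATAAG (the GATA factor core), GAGAGA and GGTTCGA (part of the B box inside tRNA genes).
par-5 spacer: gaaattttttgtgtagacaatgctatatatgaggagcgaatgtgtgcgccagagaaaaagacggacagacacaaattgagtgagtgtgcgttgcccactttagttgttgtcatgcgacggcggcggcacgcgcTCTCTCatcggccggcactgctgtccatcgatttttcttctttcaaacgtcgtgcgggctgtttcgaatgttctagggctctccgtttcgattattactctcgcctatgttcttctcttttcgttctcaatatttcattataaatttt

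A second par-5 peak lay in the 3' UTR at IV:11820648-11820957, with a pooled signal of 52.55 and an IDR of 0.00941, just inside the limit of 0.01. The overlapping regions were weaker regions in both replicates, with signals of 36.11 in replicate 1 (−log10 IDR 0.79) and 29.73 in replicate 2 (1.4). It is the member peak nearest to the threshold from inside. The other 8 par-5 regions ranged from 2.37 to 48.61.

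ftt-2 stood just outside the threshold in the pooled list. Its strongest region, X:11605796-11606105, had its summit 532 bp upstream of the start (gene X:11603708-11605419, minus strand), a pooled signal of 67.3 and an IDR of 0.0114. The same region had an IDR of 0.00298 in the ranked list behind the conservative list, where it was a peak. In replicate 1 the overlapping region had a signal of 41.31 (−log10 IDR 0.81, top 2.52%), with its summit 150 bp from the pooled one. In replicate 2 it had 33.27 (−log10 IDR 1.3, top 3.02%), and the strongest replicate 2 region of ftt-2 was a different one, in an intron, at 33.73. The replicate 1 region also overlaps a neighbouring pooled region, X:11606000-11606309 (signal 28.74), so it cannot be given to the strongest region alone. The overlapping replicate regions thus ranked within the top 3.02% of their lists without passing the threshold in either. The conservative list held a further pair of ftt-2 peaks, 1 downstream of the gene with signal 51.87 (IDR 0.00822) and 1 with signal 28.74 that overlaps the strongest region and shares its IDR of 0.00298. The 7 pooled regions ranged from 26.51 to 67.3 and were spread from upstream to downstream of the gene. The ncRNA genes F52D10.7 and F52D10.12 start within 300 bp of the strongest summit, and the nearest upstream coding gene, F52D10.4, begins 12050 bp away. No pooled peak lay closer to the ftt-2 start than 38727 bp.

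The ftt-2 region is printed for comparison with the par-5 spacer, since the pair of 14-3-3 genes fell on either side of the threshold. It is X:11605851-11606051, 100 bp to either side of the summit, on the minus strand from the same RefSeq genome, and it holds none of the searched words, so it has no capitals.
ftt-2 region: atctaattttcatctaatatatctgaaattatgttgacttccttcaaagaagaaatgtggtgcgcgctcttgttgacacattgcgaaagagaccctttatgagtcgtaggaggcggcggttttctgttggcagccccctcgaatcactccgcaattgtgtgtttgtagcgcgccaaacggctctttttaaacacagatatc

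nfm-1 encodes the worm homologue of merlin, the membrane-associated protein that acts upstream of the Hippo kinases in flies and mammals. Its peak, III:6158670-6158979, had the summit 628 bp upstream of the nfm-1 start (gene III:6159453-6164589, plus strand, 3 annotated starts). The pooled signal was 109.02 with a −log10 IDR of 3.26 (IDR 0.000554), in the top 0.437% of the list. In replicate 1 the signal was 65.64, −log10 IDR 2.67 (top 0.591%), and in replicate 2 it was 39.22, −log10 IDR 2.42 (top 1.71%). The region passed the threshold in both replicates, with summits 74 bp apart.

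The nfm-1 peak lies on a pair of tRNA genes, so its assignment to nfm-1 is uncertain. F42A10.t1 (III:6158778-6158859, 82 bp) contains the pooled summit, and F42A10.t2 (III:6158965-6159050, 86 bp) follows it, ending 403 bp from the nfm-1 start. The starts of the ncRNA genes F42A10.11 and F42A10.12 are also within 300 bp of the summit. tRNA genes have near-identical copies, and 100% of the 31-base words of F42A10.t1 and 44.6% of those of F42A10.t2 occur more than once in the genome, against 22.5% over the whole peak. Signals at a single copy are therefore uncertain. A second listed nfm-1 peak, III:6158873-6159182, had a signal of only 3.56 yet the same −log10 IDR of 3.26; it overlaps the stronger region and covers F42A10.t2. Its own signal ranked 97.3% down the list. Away from the tRNA genes, nfm-1 had weaker regions of signal 58.93 in the 3' UTR (IDR 0.0529) and 47.18 at 121 bp upstream of the start (IDR 0.057). The region nearest to the nfm-1 start had signals of 33.13 in replicate 1 and 18.72 in replicate 2 and passed no threshold.

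The nfm-1 summit is printed to show the tRNA gene under it. It is III:6158725-6158925, plus strand, RefSeq WBcel235, with the bases of F42A10.t1 in capitals. The word GGTTCGA lies inside the capitals, 13 bp from the summit.
nfm-1 peak: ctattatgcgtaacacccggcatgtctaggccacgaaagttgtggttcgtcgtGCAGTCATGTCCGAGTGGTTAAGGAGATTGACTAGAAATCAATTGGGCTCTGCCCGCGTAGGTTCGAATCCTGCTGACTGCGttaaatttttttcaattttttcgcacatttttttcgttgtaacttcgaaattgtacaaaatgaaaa

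wts-1 encodes the LATS (Warts) kinase, which in flies and mammals phosphorylates YAP. Its peak had the lowest signal of the 3 and lay nearest to the start of its gene. The region was I:10297893-10298202, with the summit 121 bp upstream of the wts-1 start (gene I:10291870-10297927, minus strand), a pooled signal of 94.45 and a −log10 IDR of 2.08 (IDR 0.00824), in the top 0.673%. In replicate 1 the signal was 59.84, −log10 IDR 1.68 (IDR 0.0208, top 0.814%). In replicate 2 it was 31.09, −log10 IDR 0.8 (IDR 0.158, top 3.9%). Neither replicate's own list held it as a peak, although the summits were 29 bp apart, and in the list behind the conservative one its −log10 IDR was 2.79. The start of T20F10.2, on the opposite strand 212 bp from wts-1, was 92 bp from the summit, nearer than that of wts-1. No RNA gene started within 300 bp. The other 4 wts-1 regions were inside or upstream of the gene, with signals from 6.58 to 26.51.

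The IDR order and the signal order of the 3 genes were the same in the pooled list, and the replicates kept par-5 above nfm-1 and nfm-1 above wts-1 by signal. A spacer of at most 500 bp to a gene starting on the opposite strand was found upstream of 3 of the 9 genes (wts-1, par-5 and sax-1). Over all coding genes the share was 9.21%, and over the 805 genes with a pooled promoter peak it was 18.8%. When each summit was given only to the nearest transcript start, coding or non-coding, no member kept a promoter peak. By the wider rule 1 member kept a peak, par-5, through its 3' UTR peak. The share of all genes under the nearest-start rule was not computed, so these counts are not read as high or low.

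**Figure D3:**
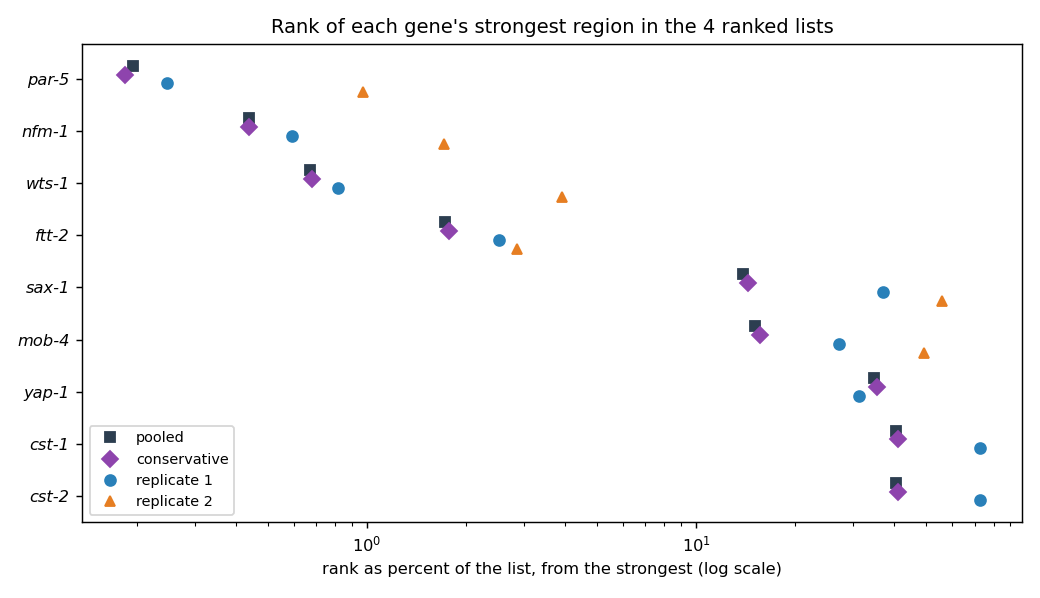
Place of each gene's strongest region in each ranked list, as the percent of the list at or above it by signal (log axis), for the pooled list, the conservative list and each replicate. par-5, nfm-1, wts-1 and ftt-2 are at 3.9% or better in every list, with ftt-2 (2.85%) ahead of wts-1 (3.9%) in replicate 2. No symbol is drawn for yap-1, cst-1 and cst-2 in replicate 2, where they had no region.

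**Figure D4:**
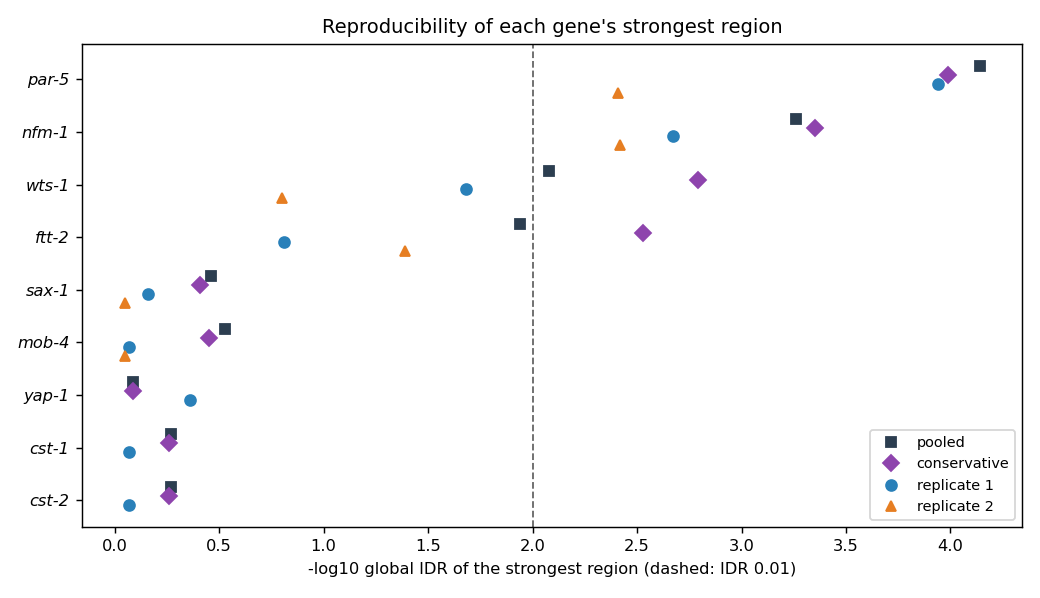
Deposited −log10 of the global IDR of each gene's strongest region in the 4 ranked lists, with the threshold of 2 marked. par-5 and nfm-1 are past it in every list, wts-1 in the pooled (2.08) and conservative (2.79) lists, and ftt-2 in the conservative list alone (2.53, against 1.94 pooled).

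sax-1 encodes the NDR kinase, a relative of LATS known in the worm for limiting neurite growth. Its strongest region, X:3650469-3650778 (gene X:3646318-3650150, minus strand), had its summit 474 bp upstream of the start and 10 bp from the start of R11G1.2, a gene 463 bp away on the opposite strand. The pooled signal was 36.94 (IDR 0.343, top 13.9%). It was 18.77 in replicate 1 (IDR 0.692, top 37%) and 13.7 in replicate 2 (IDR 0.881, top 55.7%). The replicate summits were 5 bp apart, so the replicates shared the position, at signals in the middle part of their lists. The remaining pooled regions at sax-1 had signals of 23.28 and 2.47.

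mob-4 encodes a MOB family protein related to phocein, a component of the STRIPAK phosphatase complex that opposes Hippo kinases in flies and mammals. Its 5 pooled regions had signals from 17.36 to 36.03. The strongest, III:8226633-8226942, was downstream of the gene (III:8225097-8226380, plus strand), 1691 bp from the start and 310 bp from the start of rfs-1, at an IDR above the limit (−log10 IDR 0.53, top 15.1%). The strongest replicate regions were elsewhere, upstream of the gene. Their signals were 21.18 in replicate 1 (IDR 0.855, top 27.1%) and 14.62 in replicate 2 (IDR 0.881, top 49.1%), so both were far from the limit. Those replicate summits were 78 bp apart, so the replicates shared a strongest region that was not the strongest in the pooled list. The pooled region there, III:8223356-8223665, had a signal of 29.08, and its summit lay inside the pseudogene C30A5.4. Of its 31-base words, 55.7% occur more than once in the genome, so signal there is uncertain. The nearest pooled peak, III:8227518-8227827 with signal 87.13, lay 2576 bp downstream of the start, outside the window, inside rfs-1 and within 300 bp of a snoRNA gene.

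yap-1 encodes the worm YAP coactivator, the known partner of TEAD proteins, and had no peak in any list. Its 3 pooled regions were all upstream of the start (gene X:10691943-10695100, plus strand), with signals of 26.27 at 1928 bp, 24.36 at 472 bp and 11.5 at 256 bp. The summit of the strongest was 103 bp from the start of the ncRNA gene F13E6.10, nearer than to that of yap-1. All 3 yap-1 regions had an IDR of 0.805, the highest value that the pooled list gave at a member. It is a tied value, held by 9 member regions, which include regions at wts-1, par-5, ftt-2, mob-4 and sax-1. Replicate 1 held regions at the same places, with its strongest signal, 20.13, at 499 bp upstream (IDR 0.436, top 31.2%), and replicate 2 listed none. The list behind the conservative one added a pair of regions in the 3' UTR, with signals of 20.58 and 14.96. The strongest pooled region ranked in the top 34.7%, below the median strongest signal of genes with a region. The nearest pooled peak had a signal of 66.02 and lay 4438 bp upstream of the start, at X:10687350-10687659, with no RNA gene start within 300 bp.

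The region centred 472 bp upstream of yap-1 is printed as the one nearest to the strongest replicate 1 summit. It is X:10691371-10691571, plus strand, RefSeq WBcel235, and the capitals mark GAGAGA on the other strand.
yap-1 region: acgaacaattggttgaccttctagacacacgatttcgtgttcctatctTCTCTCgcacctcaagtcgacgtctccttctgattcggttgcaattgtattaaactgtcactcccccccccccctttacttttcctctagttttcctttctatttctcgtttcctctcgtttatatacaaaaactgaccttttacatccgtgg

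cst-1 and cst-2 encode the worm homologues of the MST (Hippo) kinase, the first kinase of the core cascade in flies and mammals, and most of their sequence is repeated. The genes lie head to head (cst-1 X:4339632-4343706, plus strand; cst-2 X:4333057-4336050, minus strand), 3581 bp apart. A comparison of the genome with itself found an exact inverted repeat with arms of 4489 bp, X:4333232-4337720 and X:4337958-4342446, around a loop of 237 bp. Of the 31-base words of cst-2, 99% occur more than once in the genome, and of those of cst-1, 68.9%. The median gene has 0%, and 828 genes (4.15%) exceed 50%. The longest identical stretch shared by the genes was 2815 bp. Reads that fall in such sequence cannot be placed on 1 copy, and how the authors treated them is not given in the sources used here.

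Both genes shared a single pooled region, X:4337519-4337828, with signal 24.24 (IDR 0.542, top 40.3%). Its summit was 1958 bp upstream of cst-1 and 1624 bp upstream of cst-2, at the inner end of the left arm next to the loop, and 61.4% of its words were repeated. Replicate 1 had an overlapping region of signal 11.4 (top 72.6%) and another of 3.46, and replicate 2 had none. No ranked list held a region inside either gene body. The last 1260 bp of cst-1 (X:4342447-4343706) lie outside the arm, with 0% repeated words, and held no region in any of the 4 ranked lists. The nearest pooled peak lay 104643 bp downstream of the cst-1 start. In the pooled list, 3553 of the 79828 regions (4.45%) had more than 50% repeated words, as the region shared by cst-1 and cst-2 did. Whether their signal came from repeated or single-copy bases was not tested. The part of the repeat in the low signal at cst-1 and cst-2 was not tested.

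**Figure D5:**
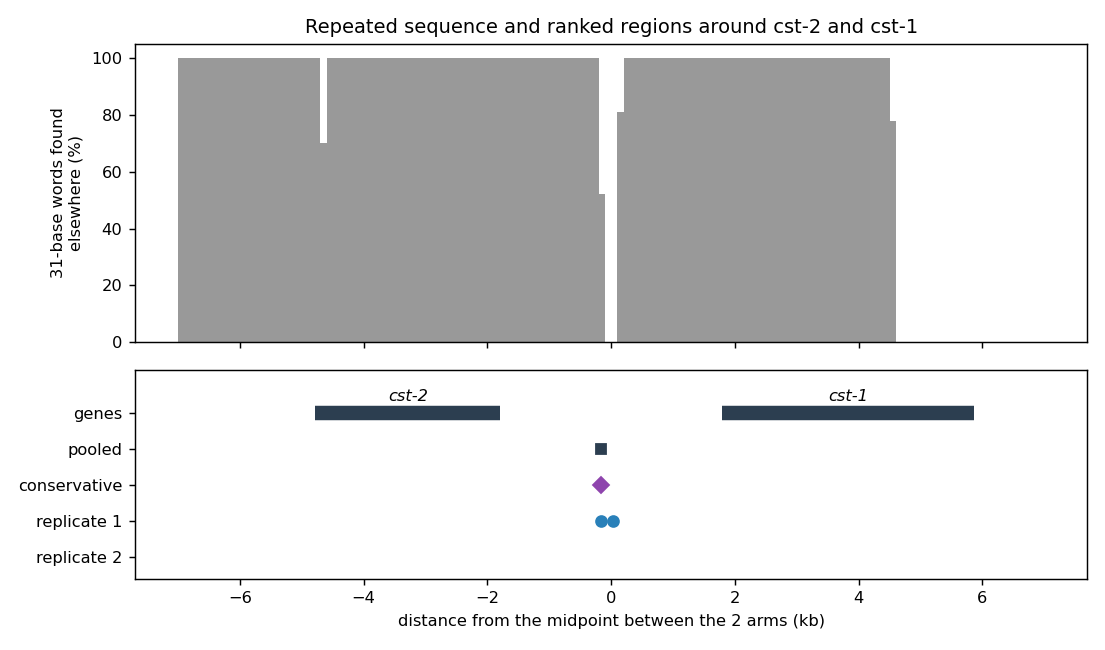
Map of the cst-1 and cst-2 locus, with the distance in kb from the midpoint between the repeat arms on the horizontal axis and, above, the percent of 31-base words found elsewhere in the genome. Symbols below mark the summits of ranked regions in each list, all at or beside the 237 bp loop and none in either gene (dark bars).

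The sequences show both points. The first 60 coding bases of cst-1 (X:4339644-4339703, plus strand) and of cst-2 (X:4335975-4336034, minus strand) are identical. The summit region of the pair (X:4337574-4337774, plus strand) is given with the single-copy loop bases in capitals. All are from RefSeq WBcel235.
cst-1 coding start: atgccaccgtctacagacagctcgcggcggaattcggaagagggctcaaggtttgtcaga
cst-2 coding start: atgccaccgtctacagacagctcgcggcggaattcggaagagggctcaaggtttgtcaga
cst region: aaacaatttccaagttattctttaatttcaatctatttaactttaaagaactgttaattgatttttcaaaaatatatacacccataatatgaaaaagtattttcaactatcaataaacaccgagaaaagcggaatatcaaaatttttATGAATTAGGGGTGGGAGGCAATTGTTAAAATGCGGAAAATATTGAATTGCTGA

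Each searched word was found at some of the 5 member peaks. Within 100 bp of the summit, CATTCC was found at 1 of 5 (wts-1, 84 bp from the summit), where 8.59% of all 1537 nuclear pooled peaks and 10.6% of weaker regions held it. GATAAG was found at 2 of 5 (wts-1 and the strongest par-5 peak), against 11.9% and 8.18%. GAGAGA was found at 3 of 5 (wts-1 and both par-5 peaks), against 30% and 12.8%, with 6 overlapping or separate matches at wts-1. GGTTCGA was found at 2 of 5, the overlapping nfm-1 pair on the tRNA genes, against 12.9% and 2.01%. Over the 40 member regions the counts were 4, 5, 9 and 3. Median GC content was 45.8% at peaks and 39.8% at weaker regions. A match is a description of letters and not a site.

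The wider pathway list, chosen with earlier results of these data known, held 36 genes found in the annotation of 38 listed. Of these 9 had a pooled peak (25%, against 8.22% of all genes) and 6 a promoter peak (16.7%, against 4.03%), with a median window of 8999 bp against 4182 bp over all genes, and a longer window has more room for a region. The counts by role that follow are small and are read against the same 8.22%. Among core genes and cofactors 2 of 8 had a pooled peak: egl-44, which encodes the mapped protein (99.54), and mob-2 (89.36), a MOB gene. Of 4 kinase genes related to those that act on LATS or NDR in other species, none had one. Of 7 genes for phosphatase subunits and STRIPAK-type partners, 3 did: pptr-1 (131.53) and sur-6 (80.28), both regulatory subunits of protein phosphatase 2A, and paa-1 (68.33), its scaffold subunit. Of the 2 turnover genes, lin-23, an F-box protein gene, had one (80.99). Of 15 polarity and junction genes 3 did: unc-70 (140.81) and spc-1 (132.14), the beta and alpha spectrin genes, and ajm-1 (130.03), an apical junction gene. Of the 36, only unc-70, spc-1 and ajm-1 had a peak in both replicates' own lists, where 2.31% of all genes did, and small RNA genes lay within 300 bp of the unc-70 and ajm-1 summits. For the members with a peak, the corresponding pattern was par-5 and nfm-1 in both replicates, nfm-1 on small RNA genes, and wts-1 in neither replicate's own list.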

How the data were processed

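ChIP-seq of GFP-tagged EGL-44 was measured in 2 biological replicates of 1 group. The authors deposited region lists on assembly ce11, with the list types per the file descriptions deposited with them; neither the aligner nor the peak caller is given in the sources used here. Chromatin was sheared to 200 to 800 (size range, per the labels). The signal column was used as the authors deposited it, with no rescaling, and its scaling between lists is not stated, so signals were compared only within a list. The −log10 global IDR was read from the deposited ranked lists by its place in their layout. A further 8 columns of per-input signal carry no replicate name and were not used. Each thresholded list equalled the ranked regions at an IDR of 0.01 or less, minus regions that are not at these genes. Depth is unknown, since read counts were not among the values analysed, and no interval is given.

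Gene models were those of Ensembl release 115, with RefSeq symbols (46881 of 46926 genes matched); 2 listed symbols of the wider list had no match. Summits were assigned to genes, repeated 31-base words were counted genome-wide on both strands, and exact words were searched within 100 bp of summits. The lookup of summits in gene windows was checked with summits planted inside those windows. That check does not bear on the choice of windows or starts. Because there is 1 group, no p-value was computed, and shares stand beside those of all nuclear protein-coding genes. The members and lists were chosen with earlier results of these data known. Named are all members, wider-list genes with a pooled peak, the nearest other start and RNA genes within 300 bp at member peaks, and genes next above and below in promoter peak signal; neighbours named at weaker regions and beyond the windows were chosen after their values were seen. Alternatives covered the window, overlap rule, list, IDR limit, nearest start, small RNA genes (tRNA, snoRNA, snRNA and rRNA) and word window. Calculations used Python 3.11.15, NumPy 2.4.6, pandas 2.3.3 and Matplotlib 3.10.9.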

Additional observations from a re-analysis of the deposited data

How the results depend on the processing

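Of the 9 genes, 3 had a pooled peak. The count stayed at 3 with a start window of 1000 bp and with any overlap, rose to 4 with the conservative list or an IDR limit of 0.05 (both adding ftt-2), and 2 at an IDR limit of 0.001 and without peaks near small RNA genes. It was 5 with a window of 5000 bp (adding mob-4 and yap-1), 1 with the gene body alone and 1 with only the nearest start (par-5 in both). Leaving out either replicate gave 2 to 2. The share of all genes was 7.74% with the conservative list, 4.54% with replicate 1's own list and 3.26% with replicate 2's. For the other settings, and for the promoter count under its alternatives, no share of all genes is given. Those counts are therefore not read as high or low. The promoter count of 3 fell to 0 with the nearest start only and was 2 to 4 under the other alternatives, with 2 to 2 on leaving out a replicate. The count with any ranked region, 9, ranged from 6 to 9 without a replicate, the 6 being replicate 2's list alone. CATTCC was at 1 of the 5 member peaks within 100 bp, at 0 within 50 bp and at 1 within 150 bp. Over all nuclear pooled peaks the shares were 8.59%, 4.75% and 12.9%, and over weaker regions 10.6%, 5.57% and 15.2%. The cause of these changes was not tested. No paired analysis was possible because there is 1 group. Depth is unknown, so how far it limits weaker regions cannot be told, and how repeated sequence at cst-1, cst-2 and the tRNA genes by nfm-1 bears on their regions was not tested.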
